A study of Hordeum vulgare with 4 samples.

Results

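The 86 genes described here were already read in wild-type barley leaves and were raised at least 8-fold in leaves of plants that express the heat shock factor HvHSFA2e. They were selected by their levels in the same 4 libraries, from a table of 63254 assembled genes. A gene was taken when it had at least 2 CPM (a gene's reads divided by all reads of the library and multiplied by 1000000) in both wild-type libraries, and when its lower overexpression library was at least 8 times its higher wild-type library. Of 16250 genes that met the wild-type limit, these 86 met both conditions, or 0.529%. The genotype difference of the 86 genes is therefore a description of the selection, and no test of it is drawn on.

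The overexpression plants (HvHSFA2e overexpression, 2 libraries) are barley (Hordeum vulgare) of the cultivar Golden Promise, in which the transgene is constitutively expressed. The wild-type plants (2 libraries) are non-transformed plants of that cultivar. Leaves were the labelled tissue throughout, and all 4 libraries carry the same heat label of 42 °C for 30 minutes. The treatment protocol in those labels gives 40 °C for 4 hours instead, and the extraction protocol names older plants and no heat, so it is uncertain which heat exposure the leaves had. The labels give neither the promoter of the transgene, nor the number of transgenic lines, nor whether libraries of the same genotype stem from different or pooled plants.

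Heat shock factors are transcription factors that bind short repeated elements in the promoters of their target genes. Their best known targets in plants are the genes of heat shock proteins, chaperones that keep other proteins from aggregating and help them refold. In Arabidopsis, the class A factor HSFA2 is strongly induced by heat and prolongs the expression of such genes after the stress has ended. A leaf that is not stressed usually holds low levels of many heat-inducible transcripts. The files used here pair no gene name with the assembly identifiers, so the transcript of HvHSFA2e itself, chaperone genes and leaf marker genes are not analysed here. Identifiers are printed for 2 of the genes, and the others are called by their rank in mean overexpression CPM, rank 1 being the highest.

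Together, the 86 genes took 2.84% and 3.52% of all reads in the overexpression libraries, against 0.121% and 0.116% in the wild-type libraries. The means were 3.18% ± 0.485 in overexpression plants and 0.119% ± 0.00346 in wild type (SD, n = 2 each). Of these reads, ranks 1 to 10 held 56.2% and 57.3% in overexpression plants, against 41.8% and 40.9% in wild type, a difference that ranking the genes by overexpression level builds in. In bulk leaf RNA, a change in the number of cells of a type and a change in RNA per cell cannot be told apart.

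Per gene, levels spanned a wide range. In overexpression replicate 1 the lowest, median and highest of the 86 levels were 26.2, 117.3 and 4279.9 CPM, and in overexpression replicate 2 they were 21.7, 157.4 and 4720.8 CPM. In wild-type replicate 1 the lowest, median and highest were 2.16, 6.05 and 110.3 CPM, and in wild-type replicate 2 they were 2.09, 5.84 and 103.9 CPM. In overexpression mean level, 14 genes reached at least 500 CPM, 37 lay between 100 and 500 CPM, and 35 lay under 100 CPM. In each of the 86 genes both overexpression libraries lay above both wild-type ones, which the selection itself ensures.

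**Figure D1:**
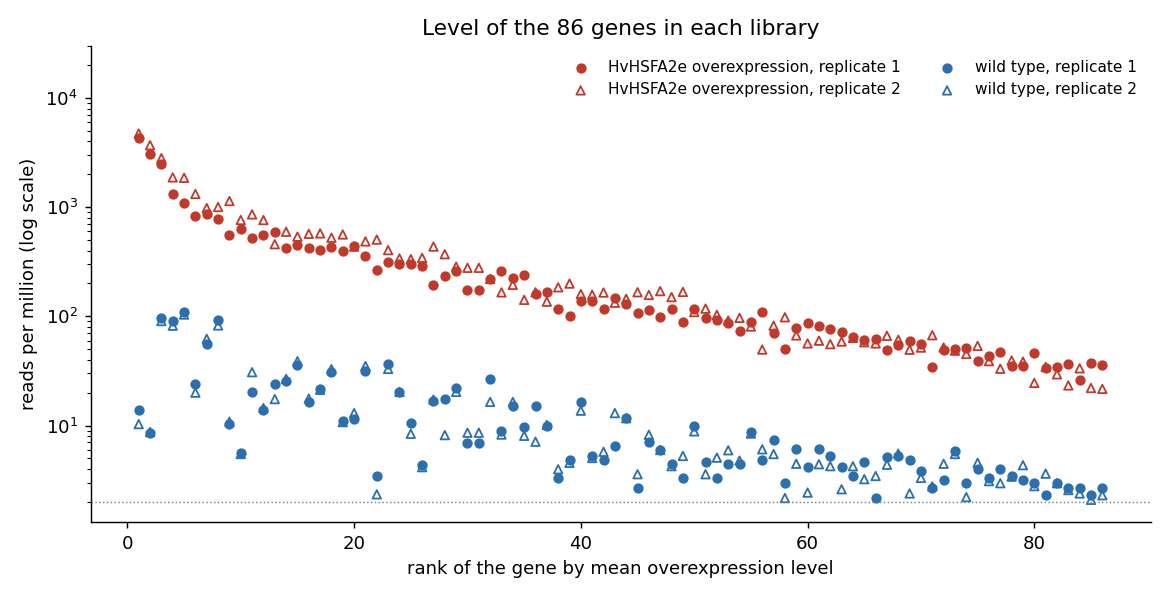
CPM of each of the 86 genes in each library (log axis), with genes ordered by mean overexpression CPM; red marks the overexpression libraries, blue the wild-type libraries, and the dotted line is the wild-type limit of 2 CPM. Overexpression levels run from 21.7 to 4720.8 CPM and wild-type levels from 2.09 to 110.3 CPM, and genes with the highest overexpression levels have both high and low wild-type levels.

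The gene with most overexpression reads was TRINITY_GG_749_c0_g1. It had 4279.9 and 4720.8 CPM in the overexpression libraries, against 13.8 and 10.3 CPM in the wild-type libraries. Those wild-type levels rest on 83 and 233 reads, and the ratio of mean CPM was 374.1. The edgeR fit gave a log2 fold change of 8.33 ± 0.29 (SE). Nearly all its reads belonged to 1 of its 2 isoforms, which held 99.7% of them in each overexpression library and 100% in each wild-type library.

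TRINITY_GG_11517_c0_g2, at rank 5, had the highest wild-type level of the 86 genes. It had 1103.0 and 1856.8 CPM in the overexpression libraries, against 110.3 and 103.9 CPM in the wild-type libraries, a ratio of means of 13.8. The overexpression libraries differed by more than the wild-type ones. Its edgeR log2 fold change was 3.56 ± 0.32 (SE), and 3.001 without overexpression replicate 2.

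The other leading genes covered a wide span of wild-type levels, and ranks 2, 9 and 10 were at its low end. Rank 2 had 3071.3 and 3697.2 CPM in the overexpression libraries, against 8.62 and 8.70 CPM in the wild type, the largest ratio of means among the 86 genes, 390.6. Rank 9 had 557.3 and 1138.5 CPM in the overexpression libraries, against 10.3 and 10.8 CPM in the wild type. Rank 10 had 637.3 and 763.1 CPM in the overexpression libraries, against 5.64 and 5.48 CPM in the wild type.

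These 3 genes and rank 1 were raised by at least 50 times even between the lower overexpression and the higher wild-type library. At the high end of wild-type levels, rank 3 had 2498.9 and 2812.6 CPM in the overexpression libraries, against 97.0 and 90.5 CPM in the wild type. Rank 4 had 1317.3 and 1874.4 CPM in the overexpression libraries, against 89.7 and 82.1 CPM in the wild type. Rank 8 had 780.5 and 1003.4 CPM in the overexpression libraries, against 92.4 and 82.5 CPM in the wild type, which placed it close to the selection limit at a ratio of 8.45 between its lower overexpression and its higher wild-type library.

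Ranks 6 and 7 lay between these in wild-type level. Rank 6 had 824.7 and 1320.4 CPM in the overexpression libraries, against 24.1 and 19.999 CPM in the wild type. Rank 7 had 867.7 and 981.5 CPM in the overexpression libraries, against 56.0 and 62.3 CPM in the wild type. In all of ranks 1 to 10 overexpression replicate 2 was the higher library.

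CPM counts reads and favours long transcripts, so levels were also compared per length, on the deposited expression signal (TPM scaled by the authors with 1 TMM factor per library). On that scale the 86 genes had a median of 108.9 and 109.3 in the overexpression libraries, against 6.57 and 6.18 in the wild-type libraries. Ranks 1, 2 and 3 remained the leading 3 genes, and 7 of the 10 highest genes per length were among ranks 1 to 10 by reads. Rank 1 had a per-length signal of 1474.0 and 1764.9 in the overexpression libraries, against 5.64 and 4.22 in the wild type. Rank 5 had a per-length signal of 881.7 and 1616.0 in the overexpression libraries, against 103.9 and 100.5 in the wild type.

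Rank 20, assembled as 21 isoforms, stood higher per length than by reads, at place 7, with a signal of 605.4 and 657.1 in the overexpression libraries, against 14.6 and 18.1 in the wild type. Rank 9 stood lower per length, at place 29, and had the largest effective length of the group (the length over which reads can start, estimated from the ratio of expected counts to the signal), 2.73 times the median of all genes with enough reads. The effective length of the 86 genes had a median of 1.11 on this relative scale, with 25th and 75th percentiles of 0.639 and 1.39. For the other 16164 genes that met the wild-type limit the median was 0.986, with 25th and 75th percentiles of 0.591 and 1.49.

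Between the lower overexpression and the higher wild-type library, the ratio of the 86 genes had a median of 13.6 and ran from 8.05 to 352.8. It was under 10 in 21 genes, at least 16 in 31, at least 32 in 10, at least 64 in 5 and at least 100 in 3. The largest ratios belonged to ranks 2, 1, 10, 22 and 26. Rank 22 had 268.5 and 504.9 CPM in the overexpression libraries, against 3.48 and 2.34 CPM in the wild type. Rank 26 had 288.8 and 343.0 CPM in the overexpression libraries, against 4.31 and 4.15 CPM in the wild type.

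The ratio was not tied to a single wild-type level. The 17 genes that averaged 20 CPM or more in the wild type had ratios of means from 10.1 to 48.7, with a median of 15.6. The 34 genes between 5 and 20 CPM had ratios from 8.78 to 390.6, with a median of 19.9, and the 35 genes under 5 CPM had ratios from 9.80 to 132.8, with a median of 15.2. None of the 86 genes had a wild-type mean above 107.1 CPM, although 1245 other genes did. Among those 1245, the largest ratio of means was 8.78, for a gene whose libraries did not meet the selection rule.

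**Figure D2:**
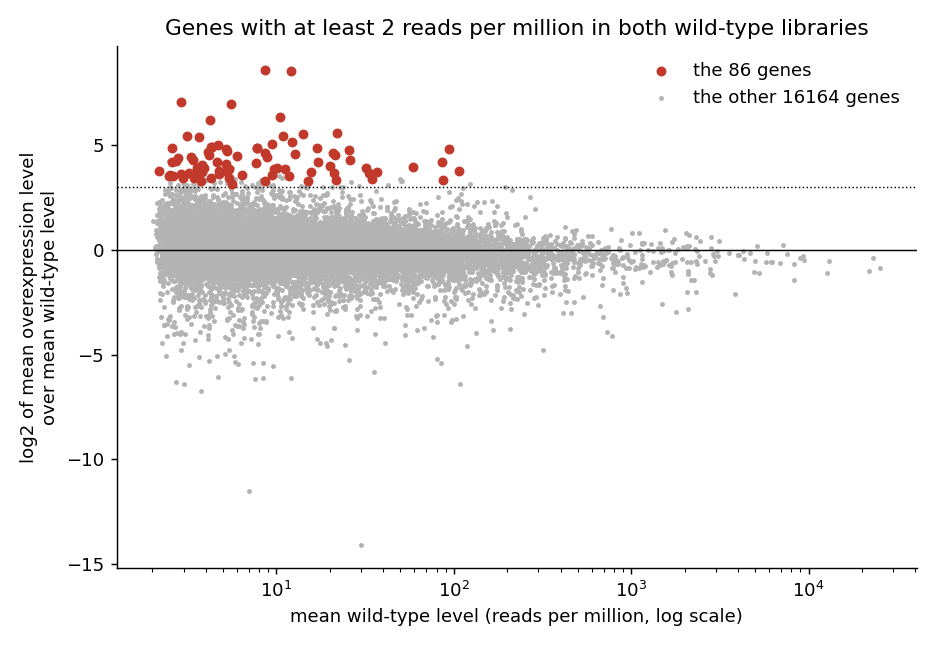
Log2 of the ratio of mean overexpression to mean wild-type CPM against mean wild-type CPM (log axis) for genes with at least 2 CPM in both wild-type libraries; red points are the 86 genes, grey points the other genes, the dotted line is a ratio of 8, and 16 genes without overexpression reads are not drawn. The 86 genes lie at log2 ratios from 3.13 to 8.61 and at wild-type means up to 107.1 CPM, and 44 other genes also had a ratio of means of at least 8 but failed the rule on single libraries.

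The limit divided genes with near values. Nearest above it, rank 79 had 34.9 and 38.4 CPM in the overexpression libraries, against 3.15 and 4.33 CPM in the wild type, a ratio of 8.05. Rank 32 followed at 8.11, with 217.8 and 220.0 CPM in the overexpression libraries, against 26.9 and 16.5 CPM in the wild type. Rank 86 was next at 8.16, with 36.2 and 21.7 CPM in the overexpression libraries, against 2.65 and 2.30 CPM in the wild type.

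Nearest below the limit, 3 genes had ratios of 7.97, 7.98 and 7.996. The gene nearest to it had 75.6 and 94.7 CPM in the overexpression libraries, against 9.45 and 7.16 CPM in the wild type. The converse rule, with at least 2 CPM in both overexpression libraries and the lower wild-type library at least 8 times the higher overexpression library, took 16 of 18208 genes.

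Wild-type read numbers limit the precision of these ratios, as does the spread between libraries of a genotype described below. The library totals were 14488461 and 14128916 reads for overexpression replicates 1 and 2, and 6030406 and 22631196 for wild-type replicates 1 and 2. The 86 genes had 13 to 665 reads in the shallow wild-type replicate 1 and 47.2 to 2352.0 in wild-type replicate 2. The fewest pooled wild-type reads were 61, at rank 85, for which counting error alone gives a 95% exact Poisson interval of 46.7 to 78.4 reads.

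All 86 genes passed the edgeR quasi-likelihood test across 25095 genes as higher in the overexpression plants, with Benjamini-Hochberg adjusted p-values of at most 0.00115. Of all tested genes, 18.6% were called higher. Since the selection used the same contrast, nothing is read from this count. The fitted log2 fold changes of the 86 genes ran from 2.89 to 8.36, with a median of 3.80, against a median of 0.06 over all tested genes.

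The overexpression libraries differed from each other on the raised genes in a manner that followed their level. Of ranks 1 to 29, 27 had more CPM in overexpression replicate 2 than in replicate 1, with a median ratio of 1.29. Of ranks 30 to 58, 21 of 29 did, with a median of 1.16, and of ranks 59 to 86, 9 of 28 did, with a median of 0.909. Between the wild-type libraries, 13 of 29, 14 of 29 and 8 of 28 genes were higher in replicate 2 in the same classes. Their median ratios were 0.978, 0.999 and 0.921. The excess in replicate 2 among the upper ranks was thus not seen in the wild type, while the last class was similar in both genotypes.

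Other genes of like overexpression level did not share that shift to the same extent. Among genes with an overexpression mean of 500 CPM or more, 13 of 14 raised genes were higher in replicate 2, or 92.9%, against 61.2% of 214 other genes, with median ratios of 1.33 in raised and 1.06 in other genes. Between 100 and 500 CPM, 30 of 37 raised genes were higher in replicate 2, or 81.1%, against 42.8% of 1131 other genes, with median ratios of 1.23 in raised and 0.974 in other genes. Between 28 and 100 CPM, 14 of 35 raised genes were, or 40.0%, against 33.1% of 3802 other genes. TMM scaling multiplies the ratio of every gene by 1.10. After it 28 of 29, 22 of 29 and 14 of 28 raised genes were higher in replicate 2 in the classes by rank, and 59.4% of the other genes with at least 28 CPM. These counts compare 2 libraries and carry no test.

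Large differences between the libraries of a genotype were also more frequent among the raised genes, which was not tested. Between the overexpression libraries, 27.9% of the 86 genes differed at least 1.5-fold, against 8.02% of the 5147 other genes that averaged 28 CPM or more in overexpression plants. Between the wild-type libraries 14.0% of the 86 genes and 3.89% of those other genes did, where the raised genes rest on fewer reads. By overexpression level, the shares between the overexpression libraries were 22.9% of raised and 8.02% of other genes under 100 CPM, 32.4% and 7.69% between 100 and 500 CPM, and 28.6% and 9.81% from 500 CPM. Of the 24 raised genes that differed at least 1.5-fold between the overexpression libraries, 16 were higher in replicate 2 and 8 in replicate 1.

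The largest differences between overexpression libraries were at ranks 27, 56 and 9. Rank 27 had 193.5 and 435.7 CPM in the overexpression libraries, a difference of 2.25 times, against 16.9 and 17.3 CPM in the wild type. Rank 56 differed the other way, with 109.3 and 49.6 CPM in the overexpression libraries, against 4.81 and 6.05 CPM in the wild type. Between the wild-type libraries, the largest differences were at rank 36, with 161.6 and 166.0 CPM in the overexpression libraries, against 15.2 and 7.10 CPM in the wild type, at rank 28, with 236.0 and 370.8 CPM against 17.4 and 8.17 CPM, and at rank 69, with 59.6 and 49.5 CPM against 4.81 and 2.39 CPM. In these 3 genes wild-type replicate 1 was the higher library. Rank 43, the only other gene apart by at least 2 times, went the other way, with 148.0 and 133.2 CPM in the overexpression libraries, against 6.47 and 12.998 CPM in the wild type. Of the 12 raised genes that differed at least 1.5-fold between wild-type libraries, 6 were higher in replicate 1 and 6 in replicate 2.

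**Figure D3:**
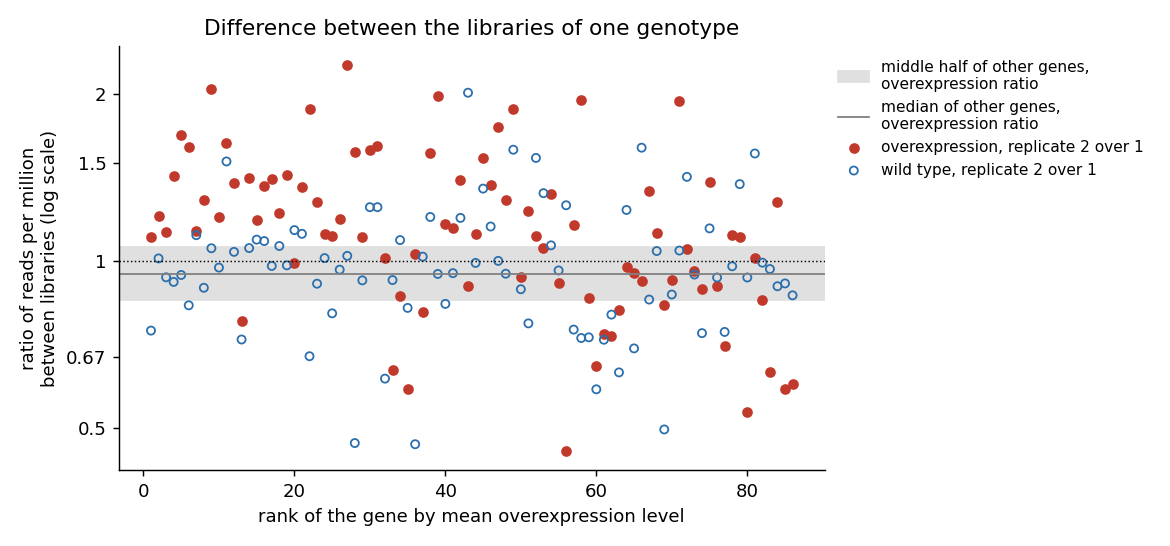
Ratio of CPM in replicate 2 to replicate 1 (log axis) for each of the 86 genes, ordered by mean overexpression CPM; filled red points are the overexpression libraries, open blue points the wild-type libraries, and the grey band and line give the 25th to 75th percentile and the median of the overexpression ratio in the 5147 other genes that averaged 28 CPM or more in overexpression plants. The red points lie above 1 in 27 of ranks 1 to 29 and in 9 of ranks 59 to 86, while the other genes have a median of 0.947.

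The median number of assembled isoforms was 2, both in the raised genes and in the other genes that met the wild-type limit. Of the 86 genes, 27 had 1 isoform, or 31.4%, and 7 had 10 or more, or 8.14%, with 22 at most. Among the 5147 other genes that averaged 28 CPM or more in overexpression plants, 38.7% had 1 isoform and 2.93% had 10 or more. Those other genes were lower in level, and within classes of overexpression mean the shares with 1 isoform were 48.6% of raised and 42.5% of other genes under 100 CPM, 21.6% and 29.6% between 100 and 500 CPM, and 14.3% and 17.8% from 500 CPM. The 86 genes had 356 isoforms in all. These are isoforms of the assembly, and the expected counts divide reads among near-identical ones by estimate.

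Most of the isoforms that could be tested were called higher, but reads were concentrated in few of them. In genes with at least 2 isoforms, the leading isoform held a median of 86.2% of reads in overexpression plants and 92.25% in wild type. Of the 271 isoforms of the 86 genes that could be tested, 220 in 85 genes passed as higher (edgeR across 38337 isoforms, adjusted p under 0.05), where 7.01% of all isoforms were called higher. The rule used the sum of these counts, so this count too is a description. Isoforms could also pass the filter on low counts through their overexpression reads alone. Other settings moved it along with the count over all isoforms, which was 2686 of 38337. With no low-count filter 258 passed, among 4009 of 88288 isoforms in all. Library-size scaling gave 227, among 3823 of 38337, and the filter of 50 reads gave 210, among 2587 of 33603. With a replicate block 120 passed, among 588 of 38337 isoforms in all. Leaving out wild-type replicate 1 gave 98, among 553 of 45471, and leaving out wild-type replicate 2 gave 35, among 162 of 43292. Leaving out overexpression replicate 2 gave 146, among 1004 of 43651.

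Fitted changes differed among isoforms of a gene, and these ranges carry no test. In 36 genes, at least 2 tested isoforms had 10 or more pooled wild-type reads each. The range of their log2 fold changes, which includes the error of each estimate, had a median of 1.35 and reached 4.93 at rank 14. That largest range lay between isoforms at 6.13 ± 0.36 and 1.21 ± 1.79 (SE), of which the lower was imprecise and not called. In 13 of the 36 genes the range was at least 2. In addition, 75 isoforms of 31 genes reached at least 1 CPM in both overexpression libraries without an expected wild-type read after rounding. Most of these were minor, with a median of 2.37% of their gene's overexpression reads, and 9 held at least 10%. Without these isoforms 83 of the 86 genes still met the 8-fold rule, and ranks 57, 81 and 84 did not, with ratios of 7.32, 7.89 and 7.33.

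The isoform with most reads was usually the same in both genotypes. Among the 59 genes with at least 2 isoforms it was the same in all 4 libraries in 50, or 84.7%, and the share was 84.8% among 8447 other genes that met the wild-type limit. In 4 genes, at ranks 13, 26, 41 and 77, the overexpression libraries shared a leading isoform and the wild-type libraries shared another. This was 6.78%, against 2.24% of the other genes, which were not matched in level. At rank 13 the shares were close. Its leading overexpression isoform averaged 37.1% there and 30.9% in the wild type, where the leader averaged 36.4%. The usage test that follows did not call rank 13 (adjusted p = 0.530, edgeR diffSpliceDGE).

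Isoform usage is the split of reads over the isoforms of a gene, while the selection used their sum. Usage could be tested in 56 of the genes. Isoforms of raised genes could pass the filter on low counts through their overexpression reads alone. The tested set was therefore not free of the selection, and no result is read from the share called. Usage was called different between genotypes in 13 of the 56 genes, or 23.2% (edgeR diffSpliceDGE, adjusted p under 0.05). Of all 6849 genes tested, which were not matched in level, 9.40% were called. Any single library left out lowered the number to 1 to 3 of the raised genes, while the count over all genes was 16 to 108, against 644. With a replicate block, 2 of the raised genes and 21 of all 6849 genes were called. The genes with the smallest adjusted p were ranks 19, 41, 20, 26, 18 and 14.

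In rank 19 (adjusted p = 0.000682, edgeR diffSpliceDGE) the leading isoform held 47.4% and 56.7% in overexpression plants and was assigned no wild-type read. The isoform that led in wild-type replicate 2 held 2.30% and 3.43% in the overexpression libraries, against 33.4% and 42.1% in the wild type. That isoform had 9.05 and 19.3 CPM in the overexpression libraries, against 3.66 and 4.52 CPM in the wild type, and was not called (adjusted p = 0.104 by edgeR). A gene raised 44.1 times as a whole thus held an isoform whose difference did not pass the test.

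In rank 26 (adjusted p = 0.00327, edgeR diffSpliceDGE) the leading isoform exchanged places with the other one. It held 69.5% and 65.0% in overexpression plants, against 0% and 3.34% in the wild type. In CPM both isoforms were higher, the other one at 88.2 and 120.2 CPM in the overexpression libraries, against 4.31 and 4.01 CPM in the wild type.

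Rank 77 showed the same exchange at a lower level (adjusted p = 0.0231, edgeR diffSpliceDGE). Its leading overexpression isoform held 73.6% and 75.3% in overexpression plants, against 30.2% and 24.9% in the wild type. Per length, the ratio of means of rank 77 was 5.67 on the deposited signal, the lowest of the group, where its CPM ratio was 11.6.

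Rank 41, assembled as 22 isoforms, was spread over many of them in the overexpression plants (adjusted p = 0.000854, edgeR diffSpliceDGE). Its leading overexpression isoform held 18.0% and 17.9% of the reads there and was assigned no wild-type read. The leading wild-type isoform held 7.99% and 12.4% in the overexpression libraries, against 65.4% and 32.7% in the wild type. In rank 14 (adjusted p = 0.00372, edgeR diffSpliceDGE) the second isoform held 39.6% and 39.8% in the overexpression libraries, against 7.60% and 10.1% in the wild type. Rank 18 (adjusted p = 0.00327, edgeR diffSpliceDGE) kept its leading isoform, at 87.4% and 89.3% in the overexpression libraries, against 100% and 99.9% in the wild type. In rank 20 (adjusted p = 0.00206, edgeR diffSpliceDGE) the isoform that led in overexpression plants averaged 40.3% there, against 11.4% in the wild type. Its wild-type libraries were led by different isoforms.

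**Figure D4:**
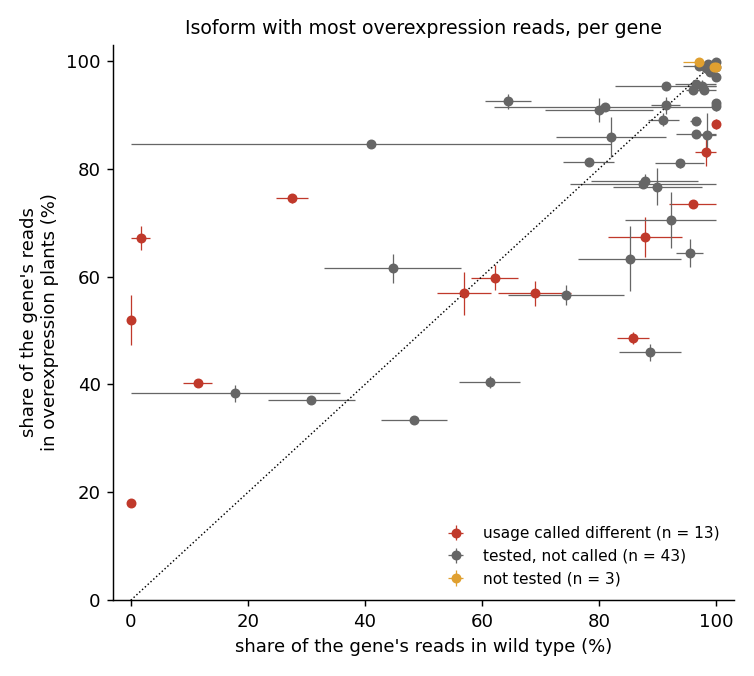
For each of the 59 raised genes with at least 2 isoforms, the share of the gene's reads held by the isoform with most overexpression reads, in overexpression plants against wild type; points are means of 2 libraries, bars reach to both libraries, and red points are the 13 genes called for usage. Most genes lie at high shares in both genotypes, and the red points with wild-type shares under 30% are ranks 19, 20, 26, 41 and 77.

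The 86 assembled genes need not be 86 loci. Genes were assembled by partition, that is, from groups of overlapping reads on the genome, and the 86 genes came from 81 partitions, 5 of which held 2 of them. Ranks 30 and 31 come from different partitions, yet their levels in each of the 4 libraries differed by at most 1.42%. Their expected counts were the same in wild-type replicates 1 and 2, at 41.5 and 194.5, and in overexpression replicate 2, at 3931.5. Whether the pair divides the same reads was not tested. Rank 30 had 175.5 and 278.3 CPM in the overexpression libraries, against 6.88 and 8.59 CPM in the wild type. No other gene of the table came within 10% of a raised gene in all 4 libraries.

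Companions are genes that share a partition with a raised gene and did not themselves meet the selection rule. Genes that met it, as in the 5 partitions with 2 raised genes, are not among them. The set of companions is thus not free of the selection. There were 89 such companions, of which 26 in 17 partitions had enough reads to be tested. Of these 26, 19 were higher and 1 was lower in overexpression plants (edgeR, adjusted p under 0.05), where 18.6% of all tested genes were called higher and 16.1% lower. Without wild-type replicate 2, 11 of 30 tested companions and 1500 of all 27380 tested genes were higher, against 4670 of 25095 genes with every library. The companions called higher lay in 14 partitions, and companions of 1 partition are not independent of each other or of the raised gene.

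Most of the companions that were higher were barely read in the wild type, and could pass the filter on low counts only through their overexpression reads. No result is therefore read from the count over all 26. The 6 largest fitted changes lay beside ranks 16, 2, 12, 61, 35 and 51, and except beside rank 2 these companions had at most 3 reads in either wild-type library. Of 10 companions with at least 10 reads in both wild-type libraries, 4 were called higher, 1 lower and 5 not called, where 13.7% of all genes with such reads were called higher.

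The companion of rank 2 had 191.7 and 227.2 CPM in the overexpression libraries, against 0.332 and 0.972 CPM in the wild type. A companion of rank 66 had 141.9 and 110.3 CPM in the overexpression libraries, against 21.9 and 8.43 CPM in the wild type. The companion of rank 43 had 57.9 and 46.3 CPM in the overexpression libraries, against 9.98 and 5.60 CPM in the wild type. In each of these 3 genes both overexpression libraries lay above both wild-type ones, by unequal factors.

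Not all companions rose. The companion of rank 22 had 3.35 and 3.22 CPM in the overexpression libraries, against 3.23 and 2.10 CPM in the wild type. A companion of rank 5 had 10.4 and 4.88 CPM in the overexpression libraries, against 6.80 and 8.53 CPM in the wild type. Neither was called, while some other companions of rank 5 were called higher. In the partition of rank 45 no companion was called higher. Rank 45 itself had 108.3 and 166.2 CPM in the overexpression libraries, against 2.65 and 3.58 CPM in the wild type. One of its companions had 57.6 and 67.1 CPM in the overexpression libraries, against 64.5 and 50.3 CPM in the wild type, and these values overlapped. Another had 36.5 and 38.1 CPM in the overexpression libraries, against 32.7 and 26.9 CPM in the wild type.

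The third companion of rank 45 was the one called lower, with 14.3 and 13.7 CPM in the overexpression libraries, against 18.6 CPM and 18.5 CPM in the wild type (edgeR log2 fold change -0.66 ± 0.18 SE, adjusted p = 0.0288). No companion was called lower under library-size scaling, with no low-count filter, with limma, or when overexpression replicate 1 or either wild-type library was left out. Rank 45 thus rose 44.0 times in mean CPM beside 3 genes of its partition of which none was called higher. Whether the companions are pieces of the same locus or separate neighbours was not tested.

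**Figure D5:**
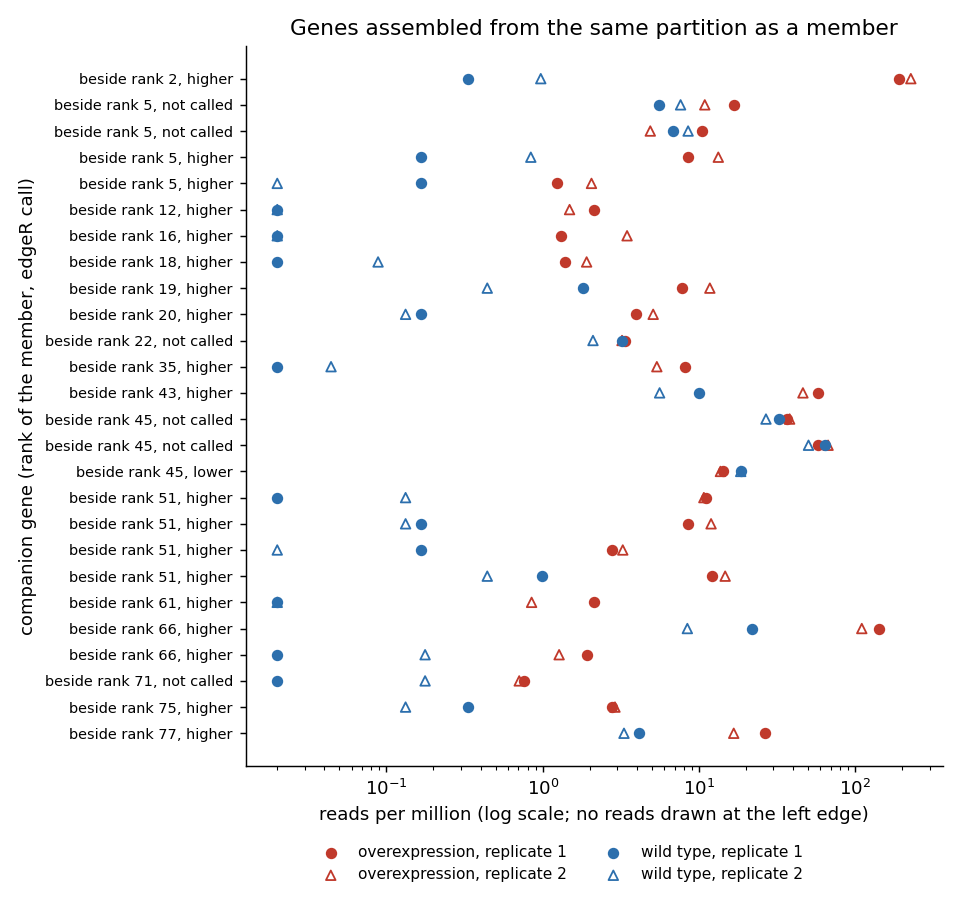
CPM (log axis) of the 26 tested companions in each library, labelled with the rank of the raised gene in their partition and their edgeR call; red marks overexpression and blue wild-type libraries, and libraries without reads are drawn at the left edge. The companion of rank 2 reaches 191.7 and 227.2 CPM in the overexpression libraries, and the 3 companions of rank 45 lie close together in both genotypes.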

How the data were processed

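RNA of 2 libraries per genotype was deposited as 4 tables. STAR, Bowtie2, RSEM and DESeq2 stand in the submitters' processing notes, with neither roles nor versions, and identifiers carry Trinity's genome-guided prefix, per the file headers. No genome build is stated in the labels. The isoform table holds the authors' RSEM expected counts. Both expression tables hold a deposited signal, TPM scaled by a TMM factor. The deposited gene count table is a length-scaled signal too (over 16260 genes, the SD of its log2 ratio to the expression signal was at most 9.81e-05) and was not used.

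Expected counts were summed per gene, divided by library totals for CPM, and rounded for edgeR 4.0.16 (R 4.3.3; filterByExpr with minimum count 10 and minimum total 15; TMM; quasi-likelihood test; Benjamini-Hochberg adjustment, with calls at adjusted p under 0.05). Isoform usage was tested with diffSpliceDGE. Standard errors were derived from the fold change and F. DESeq2 1.42.0 and limma 3.58.1 (pseudocounts of 1 and 0.1) were alternatives, as were other filters and scalings, a replicate block and leaving out each library. Scripts were checked on simulated data. Library totals ranged from 6030406 to 22631196 reads, and intervals cover counting error only. Since no label says that libraries are separate plants, p-values reflect library spread, possibly technical. With 2 libraries per genotype an exact permutation test cannot go below p = 0.333, so single values carry no test.

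The genes and all lists were chosen with earlier results of these data known. Genes described singly are ranks 1 to 10, those with the 5 largest ratios and the 5 highest wild-type levels, those nearest the limit, those with the 3 largest differences between libraries, those with the 6 smallest adjusted p for usage, and the 6 companions with the largest change. Ranks 20, 30, 43 and 77 as regards length, usage, spread or identity were described after their values were seen. So were the companions of ranks 5, 22, 43, 45 and 66.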

Additional observations from a re-analysis of the deposited data

How the results depend on the processing

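All 86 genes were called higher under each alternative of the gene-level test that kept every library, but they were selected on these libraries. Of all tested genes, 6334 of 25095 were called higher with library-size scaling, 3501 of 25095 with DESeq2 and 5748 of 60199 with no low-count filter. The rule took 106 to 120 genes with a library left out, 71 on TMM-scaled CPM (70 of them among the 86), 84 on the deposited expression signal (64 of them among the 86), 110 with a wild-type limit of 1 CPM and 46 with a limit of 5 CPM. Under library-size scaling the all-gene median of the log2 fold change was 0.32, against 0.06. Log2 fold changes ranged from 8.10 to 8.58 for TRINITY_GG_749_c0_g1 and from 3.001 to 3.91 for TRINITY_GG_11517_c0_g2. The number of companions tested changed with the filter on low counts. With no low-count filter 26 of 86 tested companions were called higher, among 5748 of 60199 genes in all. The filter of 50 reads gave 16 of 22, among 4141 of 23080 genes. Higher companions numbered 11 to 19 with a library left out (11 without wild-type replicate 2) and 16 to 26 under the other settings; the limit of 10 wild-type reads, added after seeing the data, gave 4. Isoforms called higher numbered 35 to 166 with a library left out. Usage was called in 1 to 3 genes with a library left out, in 8 under the filter of 50 reads, and in 8 when isoforms holding less than 10% of a gene were dropped (8 of 25 raised genes tested, and 239 of 3869 genes in all). The filter of 50 reads called 420 of 5721 genes in all, so calls fell over all genes under these settings too; the cause was not tested. Across genes, deviations of libraries with the same number had a correlation of 0.0024. This rests on a single difference per genotype and cannot decide whether libraries with the same number are paired. With a replicate block, the 86 genes, 19 of 26 companions and 120 isoforms were called higher, where 4555 of all 25095 genes and 588 of 38337 isoforms were. Usage was then called in 2 of the raised genes and in 21 of all 6849 genes. The cause was not tested. Leaving a library out assumes that the lone library varies like the other genotype's. Wild-type replicate 1, with 6030406 reads, limits the precision of low genes.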
